A study of Homo sapiens with 6 samples.

Results

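HOX genes encode the homeodomain transcription factors that give cells their position along the head-to-tail axis of the embryo. They were followed here in open chromatin of KMS-11, an established human line of multiple myeloma, a cancer of plasma cells. The members were taken by symbol, as protein-coding genes named HOXA, HOXB, HOXC or HOXD and a number, which gave 39 of the 19970 protein-coding genes of the annotation. HOXA had 11, HOXB 10, HOXC 9 and HOXD 9. The annotated read-through gene HOXA10-HOXA9 spans HOXA9 and HOXA10, shares their peaks and was not counted as a member. The study compared 3 libraries of KMS-11 cells given LentiV2_ATF4g3, called ATF4 knockdown libraries here, with 3 libraries of cells given LentiV2, called control libraries. All 6 have the genotype label WT, the replicates of a group are labelled as bioreps, and the knockdown libraries share 1 guide label. ATF4 is a transcription factor induced by amino acid shortage and by stress of the endoplasmic reticulum. The assay was ATAC-seq, in which Tn5 transposase cuts accessible DNA, and the values are peaks listed separately for each library on hg38.

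In the mammalian genome the HOX genes stand in 4 clusters, in the order in which they are used along the body axis. Genes with the same number in different clusters descend from 1 ancestor and form a paralogue group, with low numbers used towards the head and high numbers towards the tail and the limb ends. Polycomb complexes keep unused HOX genes silent, Trithorax complexes such as the one with KMT2A and menin keep used ones active, and HOX proteins bind DNA together with the TALE proteins PBX, MEIS and PKNOX. In blood formation, HOXA9, HOXA10 and HOXB4 are known for roles in stem and progenitor cells, and HOXC4 for a role in antibody class switching of B cells.

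Promoter sequences of RefSeq (GRCh38.p14, the assembly behind hg38), from 250 bases before to 50 bases after an annotated start, were held for 20 of the 39 genes and gave 26 distinct promoters. Promoters of other members, among them HOXA5, HOXB2, HOXB3, HOXB4, HOXB5, HOXB6, HOXB7, HOXB8, HOXB9, HOXB13, HOXC6, HOXC8, HOXC9, HOXC10, HOXC11, HOXC12, HOXC13 and HOXD9 were not used here. The first pair printed below holds the HOXA promoter with the strongest peak and a HOXA promoter with no listed peak in any library. Capitals mark CpG dinucleotides, which are dense in the promoters of many developmental genes. The HOXA4 promoter lies at chr7:27130708-27131007 and that of HOXA2 at chr7:27102634-27102933, both on the minus strand.
HOXA4: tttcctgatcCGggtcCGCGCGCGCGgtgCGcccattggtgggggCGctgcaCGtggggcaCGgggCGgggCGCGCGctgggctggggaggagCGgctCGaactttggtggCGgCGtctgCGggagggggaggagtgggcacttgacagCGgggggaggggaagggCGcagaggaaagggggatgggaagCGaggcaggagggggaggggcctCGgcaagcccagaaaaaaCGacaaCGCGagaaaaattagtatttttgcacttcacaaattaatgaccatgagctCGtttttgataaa
HOXA2: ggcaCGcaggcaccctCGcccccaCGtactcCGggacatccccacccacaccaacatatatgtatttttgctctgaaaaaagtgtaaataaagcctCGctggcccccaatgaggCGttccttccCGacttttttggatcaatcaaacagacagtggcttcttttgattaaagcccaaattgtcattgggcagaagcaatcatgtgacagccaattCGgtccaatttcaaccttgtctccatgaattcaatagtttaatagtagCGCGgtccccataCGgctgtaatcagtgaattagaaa
The HOXA4 promoter has 27 CpG and the HOXA2 promoter 11. A peak overlapped the HOXA4 promoter in every library, and none overlapped the HOXA2 promoter. The pair does not stand for a rule, since the HOXA6 and HOXA7 promoters, with 29 and 31 CpG, had no listed peak either.

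The same pair for HOXD is HOXD1, at chr2:176188418-176188717, and HOXD3, at chr2:176157057-176157356, both on the plus strand. The HOXD1 promoter, with 36 CpG, was overlapped by a peak in every library, and the HOXD3 promoter, with 25, in none.
HOXD1: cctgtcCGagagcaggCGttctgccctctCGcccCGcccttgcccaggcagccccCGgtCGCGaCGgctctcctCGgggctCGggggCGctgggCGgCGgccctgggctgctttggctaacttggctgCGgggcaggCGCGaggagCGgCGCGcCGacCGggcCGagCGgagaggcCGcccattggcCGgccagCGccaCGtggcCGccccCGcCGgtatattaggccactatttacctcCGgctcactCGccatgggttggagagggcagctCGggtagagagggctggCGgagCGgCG
HOXD3: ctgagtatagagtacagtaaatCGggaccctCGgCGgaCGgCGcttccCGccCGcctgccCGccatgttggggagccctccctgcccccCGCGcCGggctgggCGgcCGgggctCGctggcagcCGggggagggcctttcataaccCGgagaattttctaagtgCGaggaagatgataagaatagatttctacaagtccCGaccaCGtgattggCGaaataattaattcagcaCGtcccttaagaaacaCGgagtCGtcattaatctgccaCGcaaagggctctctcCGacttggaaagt
HOXB and HOXC had 1 distinct promoter each in the table, and no listed peak touched either. They are the HOXB1 promoter at chr17:48530962-48531261 on the minus strand, with 11 CpG, and the promoter that HOXC4 and HOXC5 share at chr12:54016638-54016937 on the plus strand, with 15 CpG.
HOXB1: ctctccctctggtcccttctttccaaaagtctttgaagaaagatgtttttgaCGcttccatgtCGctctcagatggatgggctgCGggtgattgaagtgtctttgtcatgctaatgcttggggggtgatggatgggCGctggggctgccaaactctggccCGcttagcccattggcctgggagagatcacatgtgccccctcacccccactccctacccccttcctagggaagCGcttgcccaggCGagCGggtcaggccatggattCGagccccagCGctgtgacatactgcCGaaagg
HOXC4: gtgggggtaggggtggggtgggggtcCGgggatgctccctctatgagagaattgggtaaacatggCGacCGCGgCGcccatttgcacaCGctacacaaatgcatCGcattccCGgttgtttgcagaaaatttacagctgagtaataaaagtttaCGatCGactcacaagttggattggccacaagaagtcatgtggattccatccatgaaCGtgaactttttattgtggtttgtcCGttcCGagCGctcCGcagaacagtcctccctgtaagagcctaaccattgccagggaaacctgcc

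All 4 clusters held accessible regions in all 6 libraries, and the HOXD cluster had the smallest share of its DNA in peaks in both group means. Each cluster was taken with 50 kb on both sides, which gave chr7:27042993-27250091 for HOXA, chr17:48478526-48778750 for HOXB, chr12:53888831-54106030 for HOXC and chr2:176037487-176240907 for HOXD. Between the outermost HOX genes, listed peaks covered 8.09 ± 0.20% of HOXA in knockdown libraries and 8.79 ± 0.38% in control libraries (SD, n = 3 each, as for all such values here). In HOXB they covered 6.41 ± 0.20% in knockdown and 7.25 ± 0.21% in control libraries. In HOXC the shares were 7.03 ± 1.24% in knockdown and 9.75 ± 1.25% in control libraries, and in HOXD 5.70 ± 0.86% in knockdown and 5.81 ± 0.43% in control libraries. In the 50 kb flanks they were lower, at 0.60 ± 0.28% in knockdown and 0.36 ± 0.34% in control libraries beside HOXD, and at 3.06 ± 0.28% in knockdown and 3.17 ± 0.19% in control libraries beside HOXB. In every library and cluster, a larger share of bases was covered among the HOX genes than beside them.

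**Figure D1:**
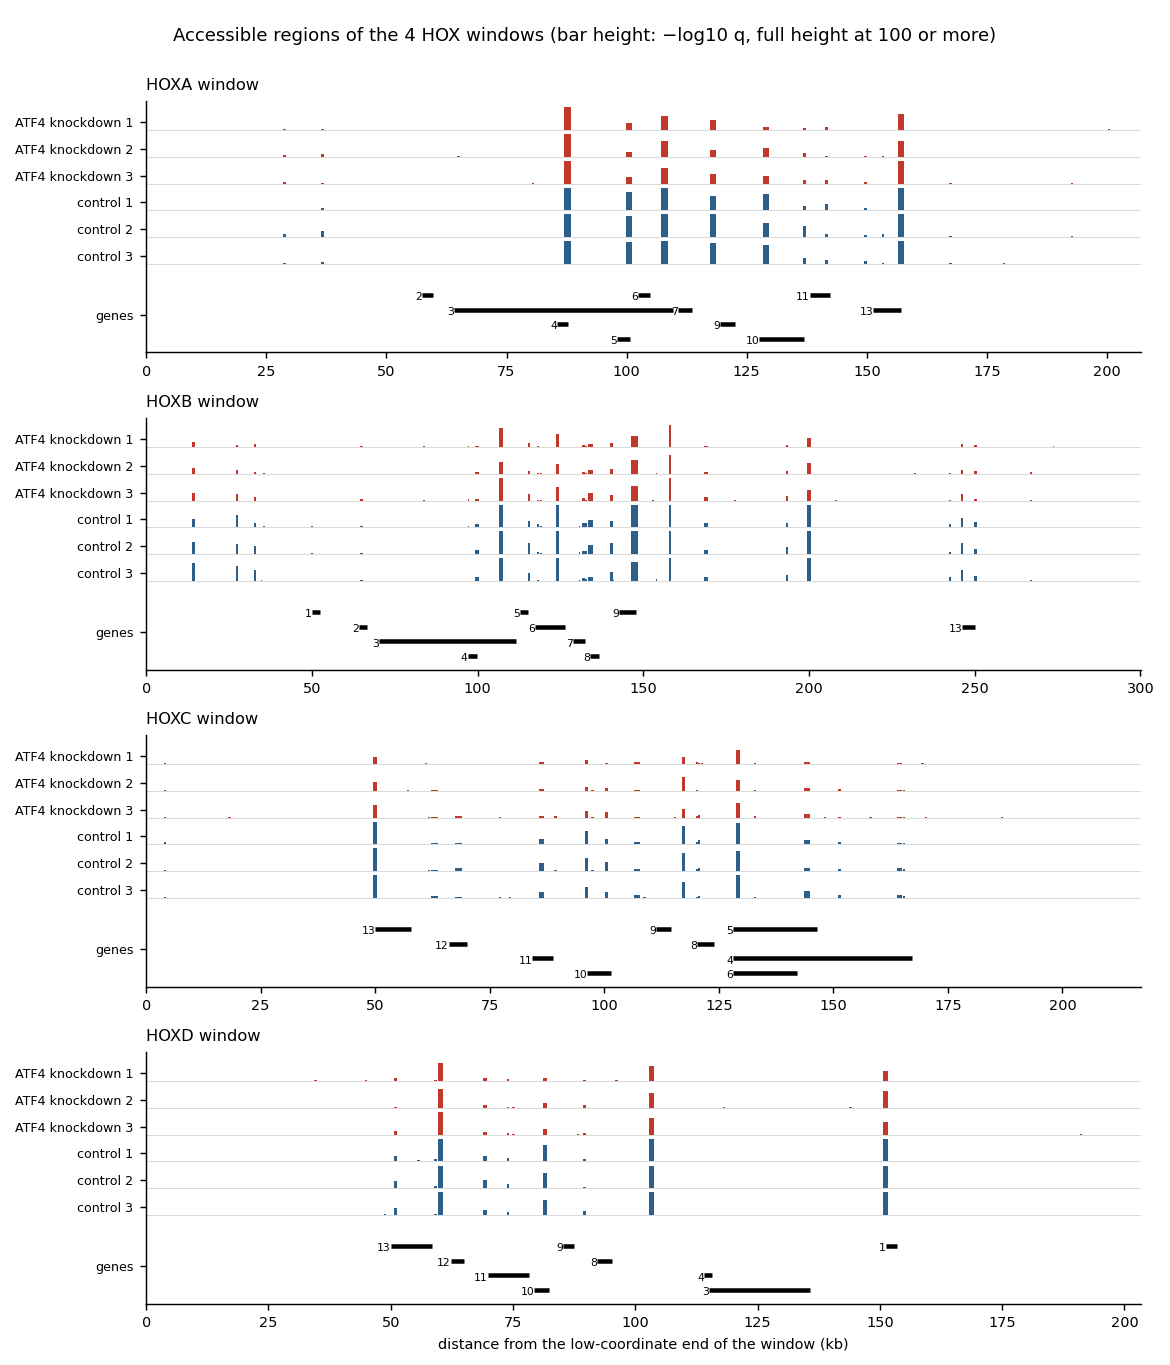
Accessible regions reported here with a −log10 q of at least 2 in some library, drawn in each HOX window against the distance in kb from its low-coordinate end, with 1 row per library (3 ATF4 knockdown rows above 3 control rows) and the genes reported here below, marked by paralogue number. Bar height is the −log10 q of the listed peak, full at 100 or more. Each bar is drawn at the place of the region merged over all libraries, so places are the same in all 6 rows by construction.

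The 6 libraries differed in depth and in the shape of their lists, and these values go with every comparison between the groups. The background pileup, the library-wide number of overlapping tags recovered from each list and a measure of depth, was 2.51, 2.15 and 2.51 in knockdown libraries 1, 2 and 3, against 3.19, 2.79 and 3.52 in control libraries 1, 2 and 3. Knockdown lists held 163937 to 171685 peaks with median widths of 247 to 262 bp, against 135070 to 161433 peaks of 302 to 347 bp in control lists. Peaks covered 62.98 to 63.88 Mb in knockdown libraries, against 67.04 to 70.7 Mb in control libraries, a ratio of 0.915 of the group means. At the 62070 regions found in all 6 libraries, the median pileup was 14.7 to 17.1 times the library background in knockdown libraries, against 22.4 to 29.7 times in control libraries. The part of these differences in the HOX values was not tested. ATF4 RNA and protein were not measured in these lists, so they hold no check of the knockdown. Of the plasma cell markers fixed for the check of the cell type, 9 of 9 were open in all 6 libraries, but so were 4 of 5 B cell, 4 of 5 T and NK cell, 4 of 5 myeloid and 5 of 5 epithelial and stromal markers. An open gene window therefore did not tell cell types apart, and the markers MS4A1, NKG7 and CD14 had no listed peak.

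Of the 39 HOX genes, 26 were open in all 6 libraries (66.7%), against a background of 79.7% of all protein-coding genes (15923 of 19970). A gene was called open where a listed peak overlapped the gene or the 1 kb on either side of it, with a −log10 q of 2 or more. In HOXA 7 of 11 genes were open in all libraries, in HOXB 8 of 10, in HOXC 7 of 9 and in HOXD 4 of 9. HOXA2, HOXA6, HOXA7, HOXD4 and HOXD12 had no listed peak in any library, which is 12.8% of the HOX genes, against 7.53% of all genes. The other 8 were open in some libraries: HOXB2 and HOXC12 in 5, HOXA9 in 4, HOXC9 in 3, HOXB1 and HOXD3 in 2, and HOXD8 and HOXD9 in 1. Windows of HOX neighbours overlap in places, so 1 peak can open more than 1 gene.

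By paralogue group, the genes of groups 10, 11 and 13, which pattern the hind trunk, limbs and urogenital tract, were open in all 6 libraries in 10 of 10 cases. These are HOXA10, HOXC10, HOXD10, HOXA11, HOXC11, HOXD11, HOXA13, HOXB13, HOXC13 and HOXD13. Groups 1 to 4 had 7 of 12 genes open in all libraries and groups 5 to 8 had 8 of 11. Neither HOXA2 nor HOXB2 of group 2 and neither HOXC12 nor HOXD12 of group 12 was open in all 6, and in group 9 HOXB9 alone was. Groups 10, 11 and 13 were put together after the values were seen, so the count describes them and was not tested.

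**Figure D2:**
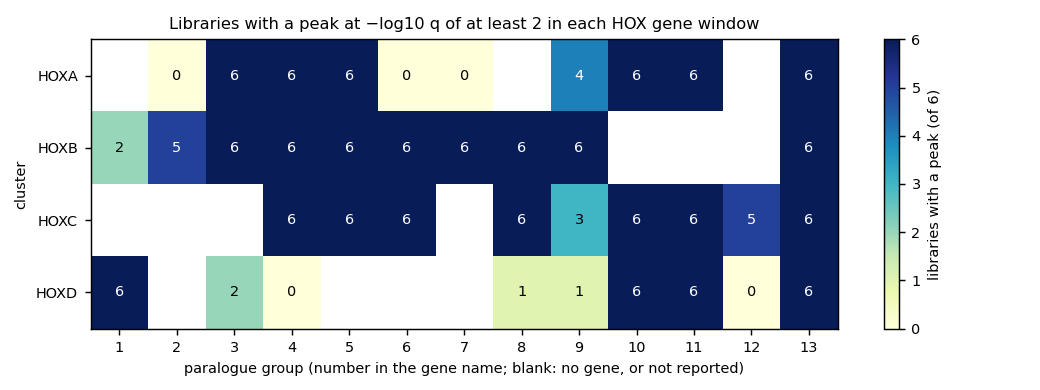
Number of libraries (0 to 6) with a peak at a −log10 q of at least 2 in each HOX gene window reported here, with the 4 clusters as rows and the paralogue groups 1 to 13 as columns. Every gene shown in columns 10, 11 and 13 is at 6, and HOXA2, HOXA6, HOXA7, HOXD4 and HOXD12 are at 0.

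In HOXA the strongest region lay over the start of HOXA4, inside the long HOXA3 gene (chr7:27129940-27131438). HOXA3 and HOXA4 are group 3 and 4 genes that pattern the hindbrain and neck. The pileup of this region was 181, 140 and 179 in knockdown libraries 1, 2 and 3, against 293, 289 and 315 in control libraries 1, 2 and 3. The −log10 q was 148, 109 and 143 in knockdown libraries and 232, 239.6 and 249 in control libraries, and the fold over local background 15.7, 14.1 and 15.0 in knockdown libraries and 15.1, 16.5 and 15.1 in control libraries. The peak was thus stronger in every control library by pileup and q, values that move with depth, while the folds overlapped. As a multiple of the library background, its pileup was 69.5 ± 3.83 in knockdown and 94.97 ± 7.55 in control libraries. This is the region that overlaps the HOXA4 promoter printed above, and it was 1238 to 1376 bp wide in knockdown and 1328 to 1439 bp wide in control libraries.

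HOXA3 had the largest covered length of the HOX genes in the mean of all 6 libraries, with 3834, 3831 and 3944 bp in knockdown libraries and 4044, 3746 and 3847 bp in control libraries. The groups overlapped, and since the gene is long this was 8.13% of its window in knockdown and 8.15% in control libraries. HOXA4 had 1286, 1376 and 1238 bp in knockdown libraries and 1439, 1328 and 1355 bp in control libraries. At 30.7% of its window in knockdown and 32.5% in control libraries, HOXA4 had the highest covered share of the 39 genes in both groups. HOXA10, a gene of blood progenitors and of the uterus, had 891, 1110 and 1309 bp in knockdown libraries and 1447, 1668 and 1098 bp in control libraries. Control library 3 lay among the knockdown libraries. HOXA10-HOXA9 had 891, 1306 and 1309 bp in knockdown libraries and 1632, 1852 and 1288 bp in control libraries, most of it shared with HOXA10.

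HOXA13, which patterns the digits and the urogenital tract, had a region at its start (chr7:27199434-27200641) with pileups of 95, 96 and 135 in knockdown libraries and 190, 192 and 195 in control libraries. HOXA11, a limb and uterus gene, had 622 ± 140.2 bp covered in knockdown and 648 ± 55.3 bp in control libraries. HOXA9, the leukaemia-associated gene of this cluster, was covered for 0, 196 and 0 bp in knockdown libraries and for 185, 184 and 190 bp in control libraries. That peak belongs to a region between HOXA7 and HOXA9 (chr7:27160270-27161633) that was found in all 6 libraries, and its edge reached the HOXA9 window in 4 of them.

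HOXA5, which patterns the lung and the neck skeleton, had the lowest ratio of the groups among HOX regions found in all libraries. Its region (chr7:27142889-27144063) had pileups of 47, 34 and 47 in knockdown libraries and 103, 110 and 123 in control libraries, a ratio of 0.499 after division by the library background. Every knockdown library lay below every control library, and the share of all regions that differ so on this scale was not counted. Peaks covered 1055, 891 and 1054 bp of the HOXA5 window in knockdown libraries, against 1145, 1109 and 1144 bp in control libraries. The groups did not overlap in these bp either, against a background of 28.9% of all genes with every knockdown library lower. HOXA5 was chosen for description after its values were seen.

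HOXB had the largest number of peaks, and its genes from HOXB3 to HOXB9 were open in all 6 libraries. The strongest region by group mean (chr17:48636362-48637012) lay between genes, 10004 bp beyond HOXB9, with pileups of 120, 100 and 119 in knockdown libraries and 236, 213 and 195 in control libraries. Next was a region inside HOXB3, a hindbrain gene also used in blood progenitors (chr17:48585042-48586059), with 105, 69 and 121 in knockdown libraries and 194, 198 and 205 in control libraries. For both, the groups did not overlap in raw pileup, a value that moves with depth, and the share of all regions that differ so was not counted. Divided by the library background and by the median of the common regions, as described below, the groups overlapped in both regions.

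HOXB3 was covered for 1955, 1457 and 1787 bp in knockdown libraries and 2055, 1593 and 1956 bp in control libraries, and library 2 was the lowest of each group. HOXB6 had 1693, 1437 and 1455 bp in knockdown libraries and 1848, 1662 and 1672 bp in control libraries, where knockdown library 1 lay inside the control range. HOXB9, which patterns the thoracic skeleton, had 1277, 1686 and 1606 bp in knockdown libraries and 1877, 1901 and 1879 bp in control libraries. HOXB9 was lower in every knockdown library, against a background of 28.9% of all genes. In knockdown library 1 its strongest peak was 876 bp wide, while in the other libraries 1 peak spanned 1606 to 1901 bp.

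Among the other HOXB genes, HOXB4, known for expanding blood stem cells, had 708 ± 46.4 bp in knockdown and 886 ± 214.5 bp in control libraries. HOXB7 and HOXB8, which share their strongest peak, had 1235 ± 43.8 and 1349.7 ± 144.2 bp in knockdown libraries and 1539 ± 75.3 and 1348 ± 178.4 bp in control libraries. HOXB8 had the second-highest covered share of its window, 27.3% in knockdown and 27.2% in control libraries. HOXB5 had 278 ± 25.7 bp in knockdown and 383 ± 162.9 bp in control libraries. HOXB13, the prostate gene that stands apart from the rest of the cluster, had 895 ± 94.98 bp in knockdown and 916 ± 81.0 bp in control libraries. The head-most genes were weak: HOXB2 had 157, 0 and 406 bp in knockdown libraries and 435, 447 and 394 bp in control libraries. HOXB1 had 202, 0 and 0 bp in knockdown libraries and 231, 337 and 0 bp in control libraries, and its printed promoter was outside these peaks.

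In HOXC the peaks of HOXC4, HOXC5 and HOXC6 are largely the same, since the 3 genes share an annotated start at base 54016888 and overlap. HOXC4 had 2942, 3231 and 3672 bp in knockdown libraries and 3267, 3906 and 4772 bp in control libraries. HOXC5 had 1976, 1881 and 1746 bp in knockdown libraries and 2096, 1856 and 2679 bp in control libraries, and HOXC6 had 1245, 1109 and 992 bp in knockdown libraries and 1017, 860 and 1490 bp in control libraries. In all 3 genes the groups overlapped, and control library 3 was the highest of the 6. Their common region (chr12:54017595-54018491), inside the genes and 0.71 kb from that start, had pileups of 91, 72 and 94 in knockdown libraries and 130, 126 and 151 in control libraries. The shared promoter printed above lies next to this region, not in it.

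HOXC13, a gene of hair and nails, had the HOXC peak with the highest −log10 q in all 3 control libraries, at its start (chr12:53938271-53939246), with pileups of 53, 57 and 77 in knockdown libraries and 119, 142 and 155 in control libraries. By that value the region of HOXC4 came first in knockdown libraries 1 and 3, and in knockdown library 2 a region between HOXC9 and HOXC8 (chr12:54005822-54006488). That region had pileups of 63, 88 and 68 in knockdown libraries and 130, 113 and 118 in control libraries. HOXC8, a thoracic gene, had 455 ± 156.3 bp covered in knockdown and 529 ± 23.2 bp in control libraries. HOXC10 had 997 ± 261.0 bp in knockdown and 1022 ± 97.4 bp in control libraries, HOXC11 822 ± 378.6 and 917 ± 172.7 bp, and HOXC13 927 ± 212.6 and 981 ± 81.9 bp, each with knockdown before control. HOXC9 had 111, 0 and 124 bp in knockdown libraries and 0, 176 and 0 bp in control libraries.

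In HOXD the genes open in all libraries stood towards the ends of the cluster, and HOXD3, HOXD4, HOXD8 and HOXD9 between them had few or no peaks. HOXD12, between HOXD11 and HOXD13 at 1 of these ends, had no listed peak in any library. HOXD1, the head-most gene, had 969, 973 and 937 bp covered in knockdown libraries and 1030, 1017 and 1036 bp in control libraries. HOXD11, a forearm gene, had 941, 932 and 993 bp in knockdown libraries and 949, 1087 and 912 bp in control libraries. HOXD13, which patterns the digits, had 1006, 545 and 554 bp in knockdown libraries and 1192, 850 and 778 bp in control libraries. HOXD1 was lower in every knockdown library, against a background of 28.9% of all genes. Its difference in means was small beside its length, at 959.7 ± 19.7 bp in knockdown and 1028 ± 9.71 bp in control libraries. HOXD11 and HOXD13 overlapped.

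The HOXD1 region (chr2:176188075-176189145) covers the printed HOXD1 promoter and had pileups of 62, 87 and 80 in knockdown libraries and 147, 231 and 179 in control libraries. A region between HOXD13 and HOXD12 (chr2:176097041-176098118) was the strongest of the cluster in each knockdown library, with 108, 107 and 147 in knockdown libraries and 201, 205 and 216 in control libraries. A region between HOXD8 and HOXD4, 7.63 kb from HOXD8 (chr2:176140325-176141309), had 87, 87 and 95 in knockdown libraries and 221, 207 and 187 in control libraries. So 2 of the 3 strongest HOXD regions lay between genes. HOXD10, a gene of the hind limb and spinal cord, had a region (chr2:176118625-176119472) with 25, 36 and 35 in knockdown libraries and 87, 80 and 87 in control libraries, a ratio of 0.504 over the library background. HOXD3 had 594, 300 and 0 bp covered in knockdown libraries and 357, 0 and 0 bp in control libraries. HOXD8 and HOXD9 had no listed peak in any control library, and in knockdown libraries HOXD8 had 182, 0 and 0 bp and HOXD9 had 229, 0 and 233 bp.

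**Figure D3:**
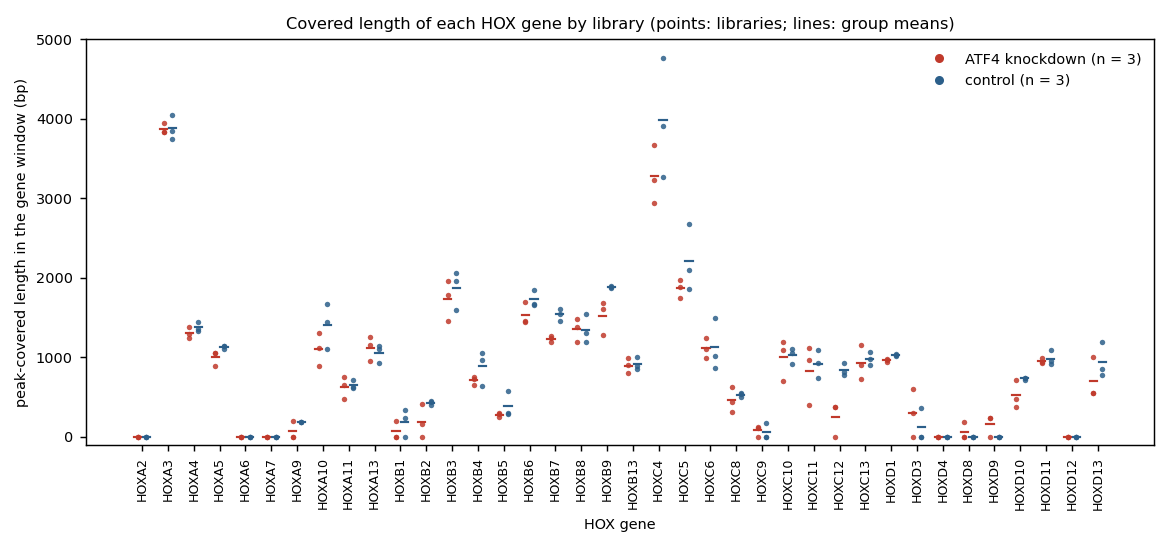
Bases covered by listed peaks in each HOX gene window reported here (gene and 1 kb on either side), with a point per library and a line at the mean of each group (n = 3), ATF4 knockdown left of control. HOXA3 and HOXC4 are highest, and most pairs of groups overlap.

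No HOX gene passed the test for a difference between ATF4 knockdown and control. Covered lengths were scaled to the total covered length of a library and compared as log2(value + 200 bp) with limma over the 17562 genes covered in at least 3 libraries, 32 of them HOX genes. At a Benjamini-Hochberg adjusted p of 0.05, 0 of 32 HOX genes were lower and 0 were higher, against a background of 0.0911% lower (16 genes) and 0.114% higher (20 genes) of all genes. At an unadjusted p of 0.05, 1 HOX gene was lower and 0 were higher, against a background of 10.1% lower, 7.01% higher and 17.1% in either direction. The mean was lower in knockdown libraries for 18 HOX genes and higher for 14, with a median difference of −0.05 on the log2 scale, against −0.01 over all genes tested. By cluster the median was 0.01 in HOXA, −0.15 in HOXB, −0.09 in HOXC and 0.02 in HOXD. With peaks restricted to a −log10 q of at least 5, HOXC4 was called lower and HOXA3, HOXA4, HOXA13, HOXC6 and HOXD1 were called higher, in a fit that called 4267 genes higher and 673 lower. HOXA2, HOXA6, HOXA7, HOXD4, HOXD8, HOXD9 and HOXD12 were covered in fewer than 3 libraries and were not tested.

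HOXC12, a group 12 gene next to HOXC13, came lowest in p among the HOX genes. It was covered for 371, 0 and 368 bp in knockdown libraries and 925, 818 and 780 bp in control libraries. Every knockdown library lay below every control library, against a background of 28.9% of all genes, and knockdown library 2 had no listed peak there. Its log2 difference was −1.29 (SE 0.43, limma adjusted p = 0.193), so it did not pass. It was the HOX gene with an unadjusted p under 0.05. The peaks were weak, with a −log10 q of 2.20 and 8.69 in knockdown libraries 1 and 3 and of 6.37, 16.5 and 4.97 in control libraries. Without knockdown library 2 the difference was −0.78 (limma adjusted p = 0.127).

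HOXD3 had the largest difference in the other direction, 0.66 (SE 0.65, limma adjusted p = 0.667), an error about as large as the value. For the gene with the largest covered length of each cluster, the differences were 0.12 for HOXA3 (SE 0.07, limma adjusted p = 0.474), 0.02 for HOXB3 (SE 0.13, adjusted p = 0.970), −0.13 for HOXC4 (SE 0.16, adjusted p = 0.725) and 0.02 for HOXD1 (SE 0.09, adjusted p = 0.926). HOXB7 was at −0.17 (SE 0.08, limma adjusted p = 0.331) and HOXB9 at −0.17 (SE 0.11, adjusted p = 0.499). HOXA5, after scaling to the library total, was at −0.05 (SE 0.10, limma adjusted p = 0.852).

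Before scaling, every knockdown library was below every control library in covered bp for 6 of the 32 genes (18.8%), HOXA5, HOXB7, HOXB9, HOXC12, HOXD1 and HOXD10, against a background of 28.9% of all genes. None was above in every knockdown library, against a background of 4.15%. The HOX share was below the background in both directions, and the covered length of whole libraries differed in the same direction, as given above.

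Covered length was also compared over whole windows. The HOXA window was covered for 10767 ± 434.3 bp in knockdown and 11676 ± 586.5 bp in control libraries (difference −909 bp, exact permutation test, two-sided, p = 0.2). The HOXB window had 15896 ± 266.7 bp in knockdown and 17681 ± 315.7 bp in control libraries (−1785 bp, exact permutation p = 0.1). The HOXC window had 10178 ± 1636 bp in knockdown and 12258 ± 1366 bp in control libraries (−2080 bp, exact permutation p = 0.3), and the HOXD window 6493 ± 1166 bp in knockdown and 6368 ± 208.5 bp in control libraries (124 bp, exact permutation p = 0.9). With 3 libraries against 3 the test cannot give a p under 0.1, and over the 4 windows the Benjamini-Hochberg values were 0.4 for HOXA, HOXB and HOXC and 0.9 for HOXD. In these bp the groups did not overlap in the HOXB window, and they overlapped in the other 3. Scaled to the library total, the HOXB difference was −309 bp (exact permutation p = 0.4). With a −log10 q of 5 or more, with lists of equal length or without flanks, the exact permutation p was 0.1 for HOXA, HOXB and HOXC, and in the first of these settings also for HOXD, each with fewer covered bases in knockdown libraries. The ratio over all 4 windows was 0.903, beside 0.915 for whole libraries.

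The knockdown lists held more and narrower peaks in every HOX window, as they did over the whole genome. HOXB had 42.3 ± 3.21 peaks in knockdown and 34 ± 2.65 in control libraries, HOXC 32 ± 3.46 and 26 ± 1.73, HOXA 21 ± 1.73 and 17.7 ± 0.58, and HOXD 16 ± 3.0 and 11.7 ± 0.58, each with knockdown before control. The median width in the HOXA window was 315 ± 45.1 bp in knockdown and 552 ± 104.6 bp in control libraries. In the HOXB window it was 280.2 ± 8.43 bp in knockdown and 440.2 ± 28.0 bp in control libraries. In the HOXC flanks, all 3 knockdown libraries had a larger covered share, with 1.94 ± 0.49% in knockdown and 0.83 ± 0.11% in control libraries. The HOXC flanks were picked after the values were seen, and the difference was not tested. Beside the other clusters the groups overlapped. The knockdown mean was higher beside HOXD and lower beside HOXB and beside HOXA, where it was 2.105% in knockdown and 2.266% in control libraries.

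**Figure D4:**
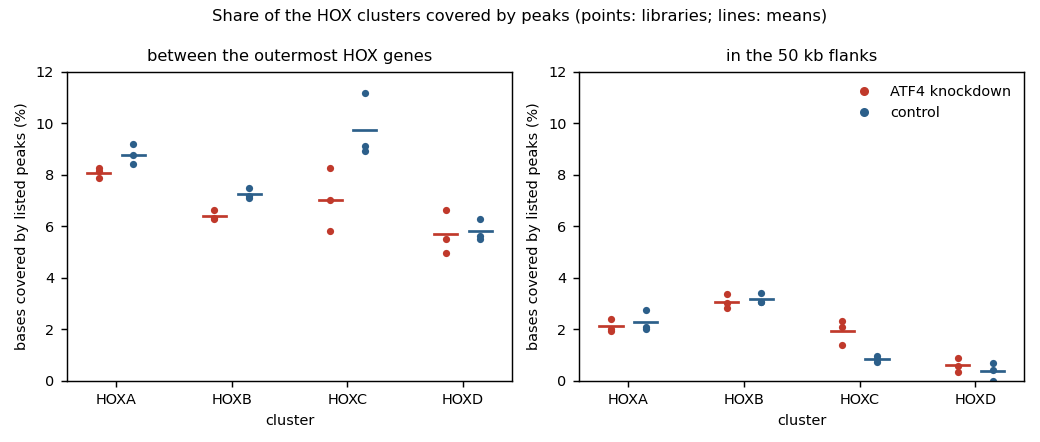
Percent of bases covered by listed peaks between the outermost HOX genes of each cluster (left) and in the 50 kb flanks (right), with a point per library and a line at the mean of each group (n = 3), ATF4 knockdown left of control. HOXC has the widest spread between libraries among its genes, and its flanks are higher in all 3 knockdown libraries, while the groups overlap in the flanks of the other clusters.

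Counting regions instead of bases, the 4 windows held 120 merged regions, and 48 of them (40.0%) were found in all 6 libraries, against 28.7% of all 216003 regions. Only 1 HOX region (0.833%) was found in the 3 control libraries alone, against a background of 1.5%, and 0 in the 3 knockdown libraries alone, against a background of 0.102%. The control-only region was 203 bp inside HOXB7, a trunk gene (chr17:48609191-48609393), with pileups of 42, 42 and 39 and a −log10 q of 7.16, 8.12 and 5.52 in control libraries 1, 2 and 3, and no listed peak in any knockdown library. Its fold over local background was low, at 2.82, 3.03 and 2.57. Its neighbour in the same gene (chr17:48610048-48610863) was found in all 6 libraries, with pileups of 38, 29 and 46 in knockdown libraries and 63, 56 and 57 in control libraries.

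Regions found in 1 library made up 43 of the 120, with 13, 5 and 11 in knockdown libraries 1, 2 and 3 and 7, 3 and 4 in control libraries 1, 2 and 3. Of the rest, 7 were found in 2 libraries, 7 in 3, 5 in 4 and 10 in 5. The knockdown lists also held more peaks over the whole genome. The split of single-library regions was not counted there, so it cannot be told whether it is particular to the HOX windows. The regions of HOXD8 and HOXD9 that were listed in knockdown libraries alone are among the weak ones, with a highest −log10 q of 4.23 and 2.65.

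Over the 48 regions found in all 6 libraries, the median ratio of knockdown to control was 0.731 for pileup over library background, against 0.685 over all such regions of the genome. By cluster it was 0.678 in HOXA, 0.736 in HOXB, 0.730 in HOXC and 0.714 in HOXD. The median pileup over background was 15.6 in knockdown and 21.1 in control libraries for HOX regions, against 16.2 in knockdown and 25.3 in control libraries for all. Each pileup was then divided also by the median of its library over the common regions, as a description chosen after the data were seen. On that scale every knockdown library was below every control library in 1 HOX region, that of HOXA5, against a background of 11.1%. Every knockdown library was above every control library in 9 (18.8%), against a background of 22.1%, and in 38 the groups overlapped.

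Those 9 regions are the start of HOXA13, a region in a flank of HOXA, the low-coordinate end of HOXB8, regions 1.83 and 45.3 kb from HOXB9, a region at HOXC8, the common region of HOXC4, HOXC5 and HOXC6, a region inside HOXD11 and the region between HOXD13 and HOXD12. The region at HOXC8 (chr12:54008928-54009163) had pileups of 30, 25 and 29 in knockdown libraries and 45, 35 and 31 in control libraries, nearly equal over the library background at 11.7 ± 0.21 in knockdown and 11.8 ± 2.72 in control libraries. The common region of HOXC4, HOXC5 and HOXC6 was at 35.7 ± 2.03 times the background in knockdown and 42.9 ± 2.21 times in control libraries, a ratio of 0.832. The HOXA5 region was at 17.8 ± 1.68 times in knockdown and 35.6 ± 3.61 times in control libraries.

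**Figure D5:**
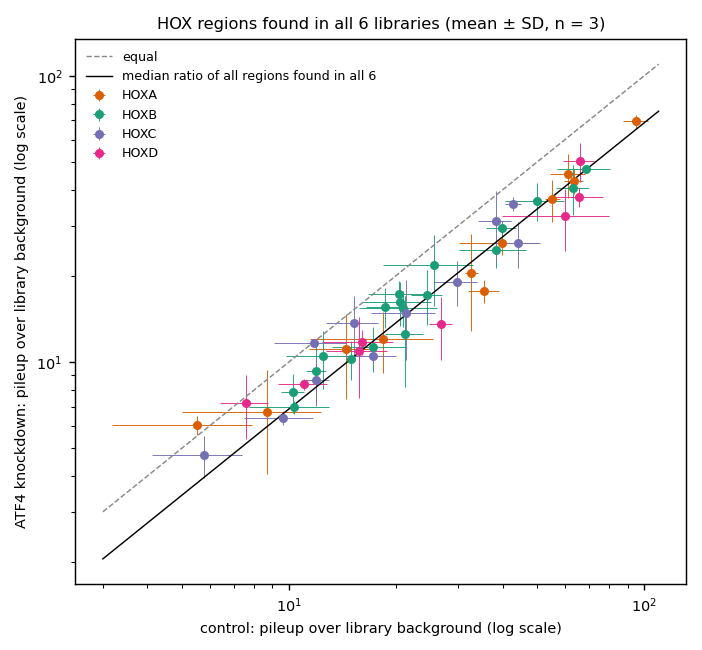
Pileup over library background of the 48 HOX regions found in all 6 libraries, control mean on the horizontal and ATF4 knockdown mean on the vertical log axis, with bars of 1 SD (n = 3) and a colour per cluster. Most points lie below the dashed line of equality and around the solid line, the median ratio of 0.685 of all such regions of the genome.

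At the promoters themselves, 5 of the 26 distinct HOX promoters were overlapped by a peak in all 6 libraries (19.2%), against a background of 59.1% of 22011 promoters of protein-coding genes, and 20 had no listed peak. The 5 belong to HOXA3, HOXA4, HOXA10, HOXA13 and HOXD1, and HOXA3 and HOXA10 have other promoters with no listed peak. HOXA3 has more of the 26 promoters than any other gene, most of them without a peak. That 1 gene thus weighs heavily in this share, in the CpG medians and in the motif shares below. Counted by gene, within 1 kb of an annotated start, 9 of 20 HOX genes were open in all 6 libraries, against 68.7% of all such genes. The table holds 16 HOXA and 8 HOXD promoters, so the share speaks mainly of these 2 clusters. The median number of CpG was 22.5 in HOX promoters and 21 in all promoters. HOX promoters with no peak had a median of 17 (range 0 to 34), while promoters with no peak over the whole table had a median of 5. HOX promoters with a peak in all libraries had a median of 29 (range 21 to 44), beside 28 over the whole table.

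HOXD11 was the 1 promoter overlapped in some libraries, and its sequence is shown because these were the 3 controls, a choice made after the values were seen (chr2:176107030-176107329, plus strand, 27 CpG).
HOXD11: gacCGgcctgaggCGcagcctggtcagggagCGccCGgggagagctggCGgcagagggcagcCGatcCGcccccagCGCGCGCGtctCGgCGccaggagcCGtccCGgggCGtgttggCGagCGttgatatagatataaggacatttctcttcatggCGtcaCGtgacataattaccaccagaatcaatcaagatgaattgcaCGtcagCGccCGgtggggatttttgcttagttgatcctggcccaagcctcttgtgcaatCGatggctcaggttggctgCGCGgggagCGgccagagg
The peak beside it was listed in all 6 libraries. It ended at 176106961, 176106955 and 176106974 in knockdown libraries 1, 2 and 3, short of the promoter, and at 176107079, 176107053 and 176107064 in control libraries 1, 2 and 3, inside it. Its pileup was 29, 28 and 27 in knockdown libraries and 48, 56 and 46 in control libraries. The pattern is thus one of a peak edge, and such promoters made up a background of 0.159% for controls alone and 0.0318% for knockdown alone.

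Motifs were searched on both strands of the promoters, as letters alone, where N is any base. The letters TGATGNAA, the core of the composite site that ATF4 binds with C/EBP proteins, were in 1 of 26 HOX promoters (3.85%), against 2.7% of all. That promoter is one of HOXA3 and had no listed peak. The letters TGACGTCA of the cyclic AMP response element were in 0 HOX promoters, against 2.25% of all, and TGANTCA of AP-1 in 0, against 6.16%. CCAAT was in 17 HOX promoters (65.4%), against 34.7% of all, and GGGCGG of SP1 in 13 of 26, against 56.3%. TATAAA was in 5 (19.2%), against 9.49%, and TGATTNAT, to which PBX and HOX proteins bind together, in 2 (7.69%), against 2.06%. Those 2 are the printed promoters of HOXA2 and HOXD11. The letters AGGGGGCG of the CTCF site were in 1 (3.85%), against 10.8%, and an NF-kB motif in 0, against 1.94%.

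The genes whose products act with HOX proteins or on HOX chromatin were mostly open in all 6 libraries, beside the 79.7% of all protein-coding genes given above. All 9 TALE cofactors, 7 of 7 genes of Polycomb repressive complex 2, 8 of 8 of complex 1, 11 of 11 Trithorax and activator genes and 6 of 6 genes of CTCF and cohesin were open in all 6. Of a further 13 genes, made up of retinoid receptors, retinoid enzymes and ParaHox genes, 9 were. Of the 54 genes, 52 were tested, and 0 passed adjusted limma p of 0.05 in either direction. At an unadjusted p of 0.05, 6 were lower and 4 higher in knockdown libraries, near the background of 10.1% lower and 7.01% higher, so the counts are no result about these lists. The median difference was −0.05.

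The pair with the smallest p went in opposite directions. PKNOX1, a TALE partner of PBX, was covered for 2926, 2723 and 2524 bp in knockdown libraries and 1952, 2160 and 1895 bp in control libraries, a difference of 0.53 (SE 0.09, limma adjusted p = 0.0593). NIPBL, which loads cohesin, had 2521, 2708 and 2669 bp in knockdown libraries and 3604, 4419 and 3962 bp in control libraries, a difference of −0.44 (SE 0.10, limma adjusted p = 0.0897). In these unscaled bp the groups did not overlap in either gene. Over all genes, 4.15% were above in every knockdown library, as PKNOX1 was, and 28.9% below, as NIPBL was. Both genes were picked by p from the same lengths, so the lack of overlap adds nothing to the test. Neither passed.

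The clusters also carry microRNAs that repress HOX messages, among them miR-196, which is known to target HOXB8. The mature sequences are shown with the seed, bases 2 to 8, in capitals, because the 2 forms share it.
hsa-miR-196a-5p: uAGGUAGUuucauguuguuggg
hsa-miR-196b-5p: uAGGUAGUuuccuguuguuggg
The hairpin MIR196A1, between HOXB9 and HOXB13, was overlapped by a peak in knockdown library 2 (−log10 q 2.00) and in control libraries 2 and 3 (2.99 and 10.3). The hairpins MIR196A2, MIR196B, MIR10A, MIR10B and MIR615 had no listed peak in any library, and the nearest region found in all 6 lay 1994, 1793, 991, 8994 and 253 bp away in that order. MIR7704 lies in the HOXD1 region.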

How the data were processed

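Open chromatin was measured by ATAC-seq in 3 ATF4 knockdown and 3 control libraries of KMS-11. The submitters' processing notes name MACS2 and hg38, and there is 1 list per library. Not given in the sources used here are versions, settings, the aligner and any shift of reads. The deposited lists give per summit a fold ratio to local background, a −log10 p, a −log10 q and a score, which the authors' caller made within 1 library. These values were used to describe and filter peaks. The score in the deposited lists was used in no result. Summits on other sequences, 6 to 16 per list, were left out.

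Genes came from RefSeq (GRCh38.p14). Overlapping entries of a list form 1 peak, valued by its strongest summit. Regions merge peaks with a −log10 q of at least 2 over all libraries. They count as found at that value with 1 bp of overlap and as absent with no listed peak. Covered length per gene, with 1 kb on either side, was scaled to the library total and tested genome-wide as log2(value + 200 bp) with limma 3.58.1 (R 4.3.3, trend and robust settings, Benjamini-Hochberg threshold 0.05). Differences on this scale understate changes of genes with little covered DNA. Whole-number pileups and local backgrounds came from the fold and −log10 p of the deposited lists (100% of summits within 0.01). That recovery used scipy 1.17.1. Cluster windows were compared by exact permutation tests in Python 3.11.15 with numpy 2.4.6.

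Alternatives changed the window, flank, q minimum, pseudocount, scaling, filter, overlap and libraries. Values in every library are given for the 3 genes per cluster with the largest covered length, for genes at an unadjusted p under 0.05 and for regions of 1 group alone. Printed promoters are those with the strongest peak and with none per cluster, ties going to the lowest paralogue group. Values of 1 HOX gene and of 1 regulator are not reported here, and both stay in the counts. The members and lists were chosen with earlier results of these data known.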

Additional observations from a re-analysis of the deposited data

How the results depend on the processing

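A −log10 q of at least 5 changed the limma calls most: 1 HOX gene was then called lower (HOXC4) and 5 higher. Of the cofactor and regulator genes, 3 were called lower and 14 higher. Over all genes that fit called 673 lower and 4267 higher, and the median of all genes moved to 0.17 on the log2 scale. The share of all genes tested in that fit is not given here, so the counts are no result about these lists. With no scaling that median was −0.13 and 3 cofactor and regulator genes were called lower (JARID2, KDM6A and NIPBL), beside 492 called lower over all genes. Under the other settings tried (window, pseudocount, filter, lists of equal length, block, each library left out) the counts in these lists were 0. The causes were not tested. HOXC12 was lower in each setting, by a log2 difference of −2.01 to −0.45, with adjusted p from 0.106 to 0.610. With the replicate block, 0 HOX genes were called in either direction, the adjusted p of HOXC12 was 0.186, and over all genes 0 were called lower and 2 higher. Same-numbered libraries showed no shared deviation from their group means, with correlations of −0.03, 0.02 and 0.01, and the main fit did not pair them. These values cannot show whether same-numbered libraries were prepared together.

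The HOXA window difference was 86.8 bp when scaled to the library total. The HOXD difference was −109 bp without flanks, −1157 bp with the −log10 q minimum of 5, −196 bp with lists of equal length, and −509 to 639 bp with 1 library left out, negative without knockdown library 1. HOXB was −309 bp when scaled to the library total (exact permutation p = 0.4). HOXA, HOXB and HOXC stayed negative under the remaining settings. Control-only regions were 2 with an overlap of 50% of the region, and 1 to 2 with 1 library left out (2 without knockdown library 3 or control library 3). Knockdown-only regions were 0 to 1 (1 without knockdown library 2 or 3). Within 1 kb of an annotated start, 9 of the 20 genes in the promoter table were open in all libraries, against 68.7% of all such genes. Depth limits weak peaks, and the lists hold no counts per gene.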
